A study of Saccharomyces cerevisiae with 2 samples.

Results

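The seripauperin (PAU) family of *Saccharomyces cerevisiae* was described across 2 microarray comparisons. The 10 genes described were PAU1 (YJL223C), PAU2 (YEL049W), PAU3 (YCR104W), PAU5 (YFL020C), PAU6 (YNR076W), PAU7 (YAR020C), PAU10 (YDR542W), PAU11 (YGL261C), PAU13 (YHL046C) and PAU17 (YLL025W), taken by ORF name from the 6207 ORFs of the array. They are part of the family, since 23 PAU genes were on the array and the other 13 are given beside them. They were chosen by family name from a table whose ratios in these same 2 comparisons were already known, so their ratios are a description and no test of them is given.

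Both RNAs of each comparison came from a wsc1 mutant of the laboratory strain BY4741, WSC1 being the gene of a cell wall stress sensor. One RNA came from cells held for 2 h with 15 ng/ml caspofungin at 24 °C, and the other from the untreated part of the same culture. Caspofungin, an echinocandin, blocks β-1,3-glucan synthase and so the making of the main wall polymer. There was no wild-type RNA, so the mutation was common to both sides of every ratio.

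PAU genes encode small proteins with a secretion signal. They are the serine-poor relatives, hence the name seripauperin, of the serine-rich TIP1, TIR and DAN wall mannoproteins. Most lie near chromosome ends, and their coding sequences are near-identical copies of each other. In wild-type yeast many are repressed by oxygen and heme and are induced by anaerobic growth, cold or fermentation. On an array, cDNA of 1 copy can therefore bind the probe of another.

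Caspofungin RNA carried Cy3 and untreated RNA Cy5 in replicate 1, and the reverse held in replicate 2. The deposited values are log2 ratios of the dyes. Replicate 1 is given here with its sign turned, which puts caspofungin on the same side of both ratios. Below, a negative ratio means less RNA with caspofungin if the deposited ratio is Cy5 over Cy3, and more RNA if it is the reverse. The sources used here do not settle which. The ratio is one of bulk RNA, so fewer expressing cells and less RNA per cell cannot be told apart.

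Of all ORFs, 3705 had a value in replicate 1 and 3166 in replicate 2. The 3117 with both had a median mean ratio of 0.01 and an SD of means of 0.275. The turned replicates differed by a median of 0.188 per ORF. Before the turning, the Pearson r between the columns across ORFs, which share an array and are no independent replicates, was -0.29. WSC1 was blank in both replicates. Marker genes taken as deleted in this strain were looked up too, and MET17 and URA3 were also blank. HIS3 had 0.071 and 0.41 in replicates 1 and 2 (mean 0.24), and LEU2 had 0.12 and 0.47 (mean 0.29). Why HIS3 and LEU2 had values was not tested. The means of PAU1 and PAU2 given below are no larger in size than that of LEU2. In limma, 0 of 3117 ORFs (0%) passed an adjusted p of 0.05, with 0.366 as the lowest value reached. Unadjusted, 417 ORFs fell under 0.05, of which 175 were positive and 242 negative. The adjusted count depended on centring: subtracting the column medians gave 115 calls (3.69%), and scaling the columns as well gave 103 (3.3%). The labels speak of 2 cultures and 4 arrays per condition, but do not say which of these the 2 columns hold, so the spread between them may be technical.

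Values were missing for several of the 10 genes, as for many ORFs of the array. Of all 23 PAU genes on the array, 12 had both values (52.2%). PAU1, PAU2, PAU3 and PAU10 had a value in both replicates, which is 4 of 10 genes (40.0%) against 50.2% of all ORFs. PAU7 had a value in replicate 1 alone. PAU5, PAU6, PAU11, PAU13 and PAU17 were blank in both, which is 5 of 10 against 39.5% of all ORFs. A blank is not a level: why some values are blank is not stated. Every count or median given for a group of PAU genes covers only those with values.

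Of the 4 genes with both values, 3 were negative in both replicates, against 32.4% of all ORFs, and 0 were positive in both, against 31.6%. The median of their means was -0.24. These shares are set side by side as a description, with no test.

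PAU3 lay farthest from 0. Its turned log2 ratio was -0.37 in replicate 1 and -0.45 in replicate 2, a mean of -0.41 ± 0.053 (SD, n = 2), which is a size of 1.33-fold. Both replicates placed it low, at percentile 7.53 of the ORFs of replicate 1 and 7.55 of those of replicate 2. PAU3 is the copy near the right end of chromosome III, with 4 annotated genes between it and the end.

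PAU1 had -0.28 in replicate 1 and -0.25 in replicate 2, with a mean of -0.27 ± 0.018 (SD, n = 2) and a size of 1.2-fold. Its replicates differed by 0.025 in size, under the median difference of 0.188 over all ORFs. It stood at percentile 11.4 in replicate 1 and 21.1 in replicate 2.

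PAU2 had -0.32 in replicate 1 but -0.11 in replicate 2, with a mean of -0.22 ± 0.15 (SD, n = 2) and a size of 1.16-fold. It was near the low end of replicate 1, at percentile 9.64, and nearer the middle of replicate 2, at percentile 40.0. Its log2 ratio in replicate 1 alone and in replicate 2 alone thus differ by over 1.5 times. Unlike the other 3, PAU2 does not lie at a chromosome end: 33 annotated genes separate it from the end of chromosome V.

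PAU10 lay apart from these genes. Its values were -0.00029 in replicate 1 and 0.084 in replicate 2, on both sides of 0, with a mean of 0.042 ± 0.059 (SD, n = 2). An SD of 2 values is no test of whether any of these means differs from 0. PAU10 was above PAU1, PAU2 and PAU3 in each replicate. It exceeded PAU3 by 0.37 in replicate 1 and by 0.53 in replicate 2. It exceeded PAU1 by 0.28 and 0.34, and PAU2 by 0.32 and 0.20.

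PAU7, with 17 annotated genes between it and the end of chromosome I, had -0.30 in replicate 1 and no second value. That single value lay between those of PAU1 and PAU2 in the same replicate. In order of their means the measured genes ran PAU3, PAU1, PAU2 and PAU10. PAU1 and PAU2, neighbours in that order, differed by -0.051 in their means and changed places between the replicates.

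**Figure D1:**
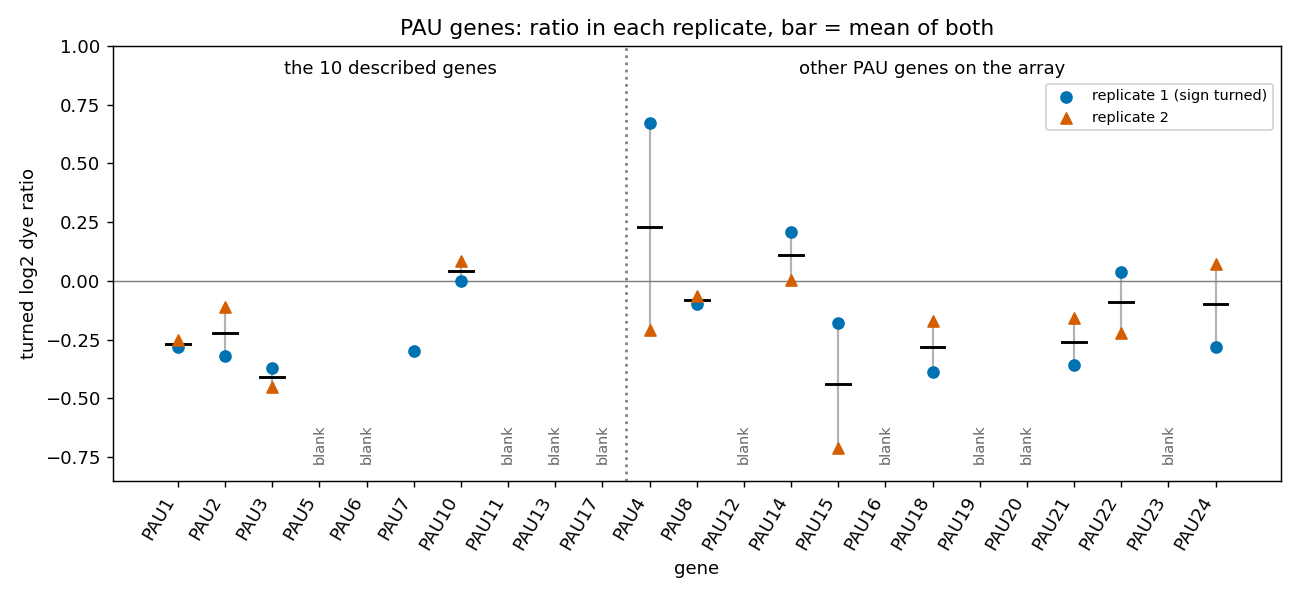
Turned log2 dye ratio of the 23 PAU genes on the array, with the 10 described genes on the left and the other 13 on the right. Circles are replicate 1, triangles replicate 2, and a black bar the mean where both exist. PAU1, PAU2 and PAU3 lie below 0 in both replicates, PAU10 lies near 0, and 10 genes are marked blank.

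The other 13 PAU genes on the array were looked at next, because, as copies of the same sequence, they can share signal with the 10. Of these, 8 had a value in both replicates and 5, namely PAU12, PAU16, PAU19, PAU20 and PAU23, had none. Negative in both were 4 of the 8, against 32.4% of all ORFs, and 1 was positive in both, against 31.6%. Their median was -0.10, with means from -0.44 to 0.23.

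PAU15 had -0.18 in replicate 1 and -0.71 in replicate 2 (mean -0.44 ± 0.38, SD, n = 2), so its size rests mainly on replicate 2. PAU18 had -0.39 and -0.17, and PAU21 had -0.36 and -0.16, both close to PAU2. Like PAU2 they were low in replicate 1, at percentiles 6.8 and 7.99, and nearer the middle of replicate 2, at 31.9 and 33.1. PAU8 had -0.10 and -0.066, nearer to 0. PAU14 alone was positive in both, with 0.21 and 0.0023.

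The remaining 3 changed sign between the replicates. PAU4 had 0.67 in replicate 1 and -0.21 in replicate 2, PAU22 had 0.037 and -0.22, and PAU24 had -0.28 and 0.071. PAU4 had the widest gap of the family, 0.88, against a 90th percentile of 0.618 over all ORFs. Over all 12 PAU genes measured in both replicates, 7 were negative in both (58.3%, against 32.4% of all ORFs) and the median was -0.16.

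**Figure D2:**
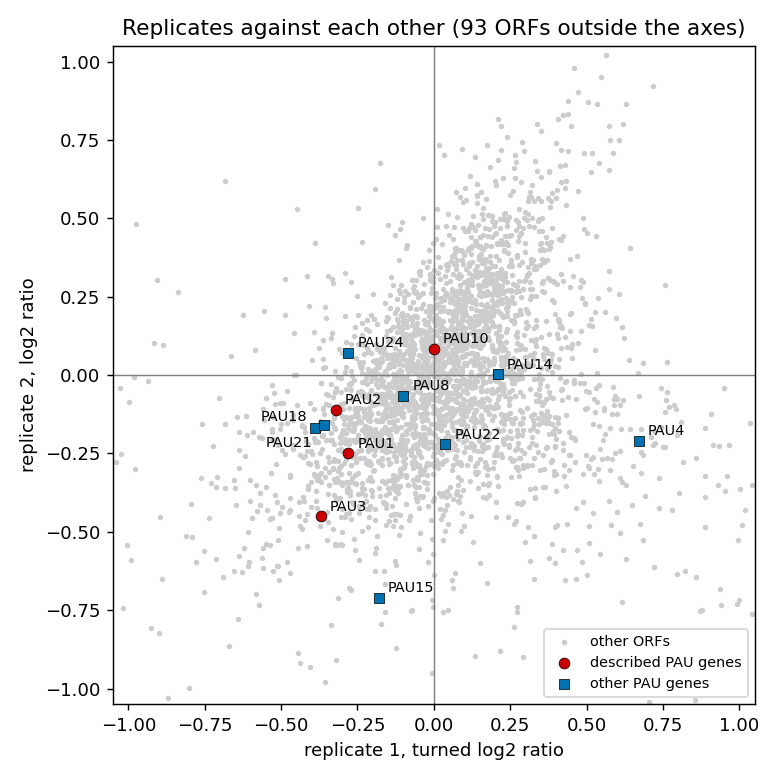
Turned log2 ratio of each ORF in replicate 1 (x axis) against replicate 2 (y axis), with the described PAU genes as red circles, other PAU genes as blue squares and other ORFs in grey. Of the 12 PAU genes shown, 7 lie below 0 in both replicates, PAU1, PAU2 and PAU3 among them, and PAU14 alone lies above 0 in both. PAU4 lies far to the right in replicate 1 alone. 93 ORFs lie outside the axes.

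Cross-hybridisation bears on how many independent measurements these are. Probe sequences and gene sequences were not used here, so the share of signal that crosses between copies was not tested. Values of 3 pairs, picked after the values were seen, can be set side by side. Their proteins are identical by general knowledge of the family, which was not checked on a sequence here. PAU1 and PAU14 are such a pair, and in replicate 1 they had -0.28 and 0.21, in replicate 2 -0.25 and 0.0023. PAU21 and PAU22, likewise such a pair, had -0.36 and 0.037 in replicate 1 and -0.16 and -0.22 in replicate 2. PAU18, paired with PAU6, had values in both replicates where PAU6 was blank in both.

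The ratios of the measured copies varied within each replicate. The SD over the 12 measured copies was 0.311 in replicate 1 and 0.223 in replicate 2, against 0.367 and 0.316 over all ORFs. For the 4 described genes it was 0.166 and 0.224. The turned replicates of an ORF differed by a median of 0.188, and how much of the spread between copies is noise was not tested. Each ratio is still that of a probe named for a gene, and may hold RNA of several copies.

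Chromosome position was read from the RefSeq gene order of assembly R64, as the number of annotated genes between a gene and the nearer end. PAU1, PAU6 and PAU10 had 1 gene outside them, PAU11 had 2, PAU3 had 4 and PAU13 had 5. PAU2, PAU5, PAU7 and PAU17 lay farther in, with 33, 47, 17 and 39. Among all PAU genes on the array, 11 of the 18 within the outermost 10 genes had both values, and 1 of the 5 farther in did.

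Other genes at chromosome ends, where measured in both replicates, had a median like that of all ORFs. The outermost 10 genes of each end, without PAU genes, held 274 ORFs of the array. Of these, 102 (37.2%) had both values, against 50.2% of all ORFs. The 102 had a median of 0.011, and 34 of them (33.3%) were negative in both replicates. ORFs within 5 places of the 4 described genes, also without PAU genes, numbered 13 with both values and had a median of 0.0072. Of these 13, 5 were negative in both (38.5%), against 32.4% of all ORFs.

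The nearest measured neighbours differed from gene to gene. Next to PAU1, the ORF YJL225C, a helicase-like gene of a Y′ element and so itself a repeated sequence, had -0.60 and -0.45 in replicates 1 and 2. On its other side VTH2 had -0.30 and -0.055. Next to PAU3, YCR102C had -0.21 and -0.33. These 3 are among the 5 of 13 measured neighbours that were negative in both replicates. Next to PAU2, TCA17 had 0.044 and -0.10, and near PAU10 FDC1, a decarboxylase of phenylacrylic acids, had -0.023 and 0.13.

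COS genes form another repeated, mostly subtelomeric family, and act in sorting membrane proteins to the vacuole. Of 11 on the array, 9 had both values, with a median of -0.021. Of those 9, 3 were negative and 3 positive in both replicates (33.3% each), against 32.4% and 31.6% of all ORFs. COS3 had -1.04 and -0.28, COS5 had -0.64 and -0.30, COS9 had 0.26 and 0.32, and COS4 had 0.18 and 0.29. Their means thus lay on both sides of 0, from -0.66 to 0.29. COS10 and COS12 were blank in both.

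The mannoprotein relatives of the family lay mostly on the positive side. TIR2, a cold-shock wall mannoprotein, had 0.31 in replicate 1 and 0.33 in replicate 2 (mean 0.32 ± 0.011, SD, n = 2). TIR3, which is needed for anaerobic growth, had 0.19 and 0.49, and TIP1, a major cell wall mannoprotein, had 0.14 and 0.24. These 3 of 4 measured relatives were positive in both replicates, against 31.6% of all ORFs, while TIR1 had -0.17 and 0.043. TIR4, DAN1 and DAN4 were blank. The median of the 4 measured relatives was 0.25, against -0.24 for the 4 described PAU genes and -0.16 for all 12 measured PAU genes. The difference was not tested.

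Regulators of anaerobic genes lay mostly on the negative side, with a median of -0.29. Of the 5 measured, 3 were negative in both replicates, against 32.4% of all ORFs. CYC8 and TUP1 encode the corepressor that acts with Rox1 and Mot3 on hypoxic genes. CYC8 had -0.47 and -0.32 (mean -0.40 ± 0.11, SD, n = 2), and TUP1 had -0.16 and -0.67 (mean -0.41 ± 0.36, SD, n = 2). HAP1, the heme-responsive activator, had -0.0016 and -0.57, so that its ratio rests on replicate 2.

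The other 2 measured regulators changed sign between the replicates. UPC2, an activator of sterol uptake and anaerobic wall genes, had -0.034 and 0.50, and SUT1, a regulator of sterol uptake, had -0.36 and 0.053. ROX1, the repressor of hypoxic genes, had -0.28 in replicate 1 and was blank in replicate 2. ECM22, SUT2 and MOT3 were blank in both.

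Hypoxic genes other than the PAU family lay on both sides. Of 10 on the array, 6 had both values, with a median of -0.037. Positive in both replicates were 2 of the 6 and negative in both 3, against 31.6% and 32.4% of all ORFs. CYC7, the minor isoform of cytochrome c, had -0.56 and -0.61 (mean -0.59 ± 0.039, SD, n = 2), a size of 1.5-fold. HEM13, the coproporphyrinogen oxidase of heme synthesis, had 0.12 and 0.25, and COX5B, a hypoxic subunit of cytochrome c oxidase, had 0.24 and 0.11. OLE1, the fatty acid desaturase, had -0.0026 and -0.23. FET4 had 0.035 in replicate 1 alone, and AUS1, PDR11 and HMG2 were blank. Of 9 genes of telomeric silencing, RIF1 alone had both values, -0.19 and 0.013, and the other 8, SIR2, SIR3, SIR4, RAP1, RIF2, YKU70, YKU80 and HDA1, were blank. With replicate 1 turned and no centring, no gene of these lists passed the adjusted threshold of limma, as no ORF of the array did. With centred and with scaled columns, CYC7 was the only gene of these lists among the ORFs called.

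**Figure D3:**
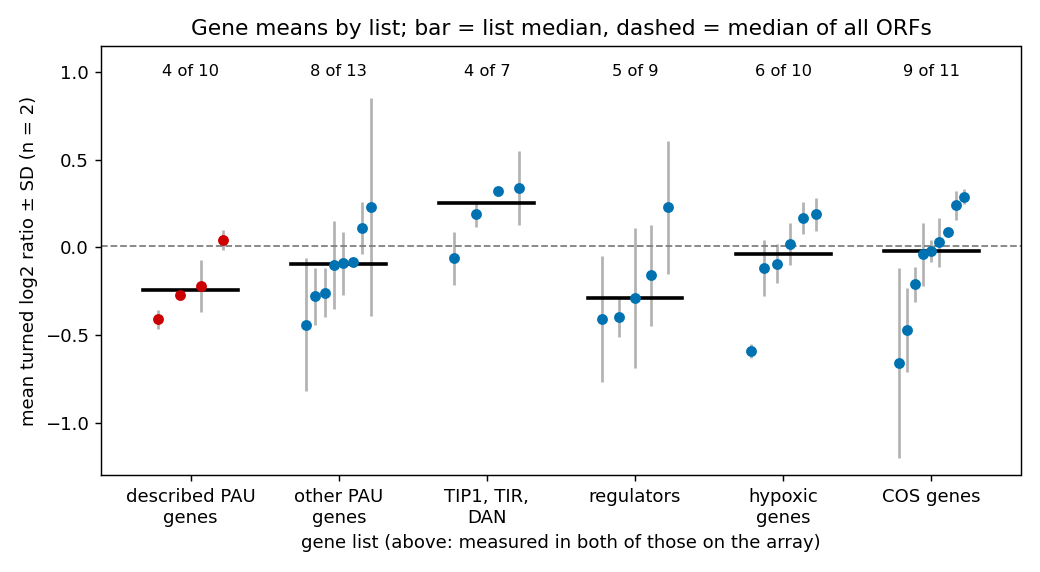
Mean turned log2 ratio of each gene with both values, by list, with the SD over the 2 replicates; thick bars are list medians, the dashed line is the median of all ORFs (0.01), and the counts above give the measured genes of those on the array. The described PAU genes have a median of -0.24, the other PAU genes -0.10, the TIP1, TIR and DAN relatives 0.25, and the COS genes -0.021.

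The turning of replicate 1 sets the side on which PAU1 and PAU2 lie and most of the size of PAU3, and leaves PAU10 where it was. With replicate 1 as deposited, the means of PAU1, PAU2, PAU3 and PAU10 were 0.013, 0.10, -0.038 and 0.042, and their median was 0.027. PAU1 and PAU3 thus lay near 0, since their deposited values had opposite signs and similar sizes in the dye-exchanged columns.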

How the data were processed

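RNA of caspofungin-treated and untreated wsc1 cells was compared on 2-colour arrays in 2 samples with exchanged dyes, per the labels. The deposited table gives 1 log2 value per ORF and sample. In each column, 100% of values, raised as powers of 2, had at most 4 decimals within 0.001 of the last, so they were read as log2 dye ratios. Background correction, normalization, centring, ratio direction and the reason for blanks are not stated. No intensities were used. The number of arrays limits the precision. The deposited column medians were -0.073 and -0.044.

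Controls (2 entries) were left out. Replicate 1, with caspofungin in Cy3, was multiplied by -1. The 3117 ORFs with both values entered a limma 3.58.1 fit (R 4.3.3, intercept against 0, eBayes, two-sided, Benjamini-Hochberg over all). The fit was tried on simulated data with changes larger than any PAU mean here. Its power for changes of that smaller size was not tested. Symbols came from RefSeq (assembly R64), which matched 5654 of 6207 ORFs. No sequences were used. The genes and lists were chosen with earlier results of these data known. Named were the 10 genes, every other PAU gene on the array and up to 4 per list by size, with blank ones; SUT1, ROX1, FET4, silencing genes, neighbours and identical-protein pairs were added after their values were seen. Alternatives covered turning, centring, scaling, the prior, a minimum fold, blanks and leaving out a replicate.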

Additional observations from a re-analysis of the deposited data

How the results depend on the processing

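The 4 measured PAU genes had a median of -0.24. It was -0.24 with centred and with scaled columns, -0.27 with PAU7 included, -0.21 as a mean and -0.16 with all measured PAU genes, an alternative chosen after seeing the data; it spanned -0.30 to -0.18 when a replicate was left out. With replicate 1 as deposited it reversed to 0.027, as did PAU1 (0.013), PAU2 (0.10), PAU4 (-0.44), PAU8 (0.017), PAU14 (-0.11), PAU18 (0.11), PAU21 (0.10) and PAU24 (0.17). Leaving out a replicate gave ranges across 0 for PAU4 (-0.21 to 0.67), PAU10 (-0.00029 to 0.084), PAU22 (-0.22 to 0.037) and PAU24 (-0.28 to 0.071). The described genes positive in both replicates numbered 0, with 1 as deposited. Over all ORFs the count was 986, with 380 as deposited. In replicate 1 alone, 0 described genes and 1726 ORFs were positive, and in replicate 2 alone 1 and 1366. A count in 1 replicate cannot be lower than the count in both, so these are not like counts. The count of called ORFs, 0, became 115 with centred and 103 with scaled columns; the limma prior then had 17.1 and 15.4 degrees of freedom, against 2.64, and the cause was not tested. It stayed 0 with replicate 1 as deposited, the robust prior, a minimum fold of 1.2 and ORFs with 1 value. Grouping copies by protein identity was not run, and neither were sequence likeness and promoter motifs, as no sequences were used. Each sample is itself the ratio of the paired RNAs, so the limma fit of these ratios against 0 was already the paired comparison.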

Other observations

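The array has 2 control entries that were kept out of the fit. The entry named Arabidopsis had 0.29 in replicate 1 and 0.28 in replicate 2 as deposited, on the same side in both dye orientations, so that its turned mean was -0.0063. The entry named 3XSSC had -0.12 and -0.17 as deposited, with a turned mean of -0.028. As deposited, PAU1 (0.28 and -0.25) and PAU3 (0.37 and -0.45) had opposite signs in the columns. So did PAU2, PAU8, PAU14, PAU15, PAU18 and PAU21. The other measured PAU genes had 1 sign in both, namely PAU4 (-0.67 and -0.21), PAU10 (0.00029 and 0.084), PAU22 (-0.037 and -0.22) and PAU24 (0.28 and 0.071). Of all ORFs with both values, 1120 (35.9%) had 1 sign in both deposited columns.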
